A study of Mus musculus with 21 samples.

Results

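The nuclear-encoded subunits of oxidative phosphorylation (OXPHOS) were examined as 1 group of genes in the cortex of mice exposed to high-frequency head impact (HF-HI). Members were the rows of the deposited table whose GENCODE symbol begins with Nduf, Uqcr, Cox4 to Cox8 or Atp5, or is Sdha, Sdhb, Sdhc, Sdhd or Cyc1, and 71 of the 5544 genes met this rule. Of these, 31 belong to complex I, 4 to complex II, 9 to complex III, 11 to complex IV and 15 to complex V, and Cox7a2l, a protein of respiratory supercomplexes, was kept apart. Ndufa4 carries a complex I name and was counted with complex IV, where its protein is found. The rule used names and no measured value. The complex I subunit genes Ndufa11, Ndufb7, Ndufc1, Ndufs6 and Ndufs8, the Ndufaf assembly factors, the ring subunit gene Atp5g2 and the tissue-restricted Cox isoforms were not analysed here. None of these symbols was among the 5544 genes, and each share of all genes given below is over those 5544.

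RNA-seq had been performed on cortical tissue from 10 sham mice and 11 mice with HF-HI, 24 h after the final impact, with 1 library per mouse. All were male C57BL/6 mice aged 12 weeks, named wild type in the file. HF-HI mice received repeated head impacts on consecutive days under isoflurane, and sham mice had the same handling and anesthesia without impact, so isoflurane was common to both groups. Values are the variance-stabilized levels deposited by the authors, on a log2 scale and normalized for library size, on which differences of low genes are compressed. In this bulk tissue, fewer cells of a type and less RNA per cell cannot be told apart.

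Oxidative phosphorylation couples electron flow along the inner mitochondrial membrane to the synthesis of ATP. Complexes I and II feed electrons from NADH and succinate to ubiquinone, complex III passes them to cytochrome c, complex IV passes them to oxygen, and complex V uses the resulting proton gradient to make ATP. A small set of subunits is encoded by mitochondrial DNA and all others by nuclear genes, so that complexes I, III, IV and V are built from the products of both genomes and complex II from nuclear genes alone. In the brain most of this ATP serves ion pumping and synaptic transmission in neurons.

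Most nuclear OXPHOS genes were lower in HF-HI cortex. By limma with Benjamini-Hochberg adjustment over all genes, 52 of the 71 members (73.2%) were lower at an adjusted p under 0.05, where 33.6% of all 5544 genes were lower. Only 4 members (5.63%) were higher, Sdha, Atp5d, Cox6a1 and Ndufa5, where 32.6% of all genes were higher. The remaining 15 members did not pass. The median difference of the members was -0.22 on the log2 scale, within a range of -0.56 to 0.66, and that of all genes was -0.01. Centring each library on its median gave 59 members lower and 3 higher, beside 42.9% lower and 26.1% higher among all genes. With trends on GC content and exon length removed from each library, 34 members were lower and 10 higher, beside 30.1% and 28.6% of all genes, and the median difference was -0.09. The differences were small in size, and 28 members (39.4%) were lower by at least 0.25, where 8.04% of all genes were.

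**Figure D1:**
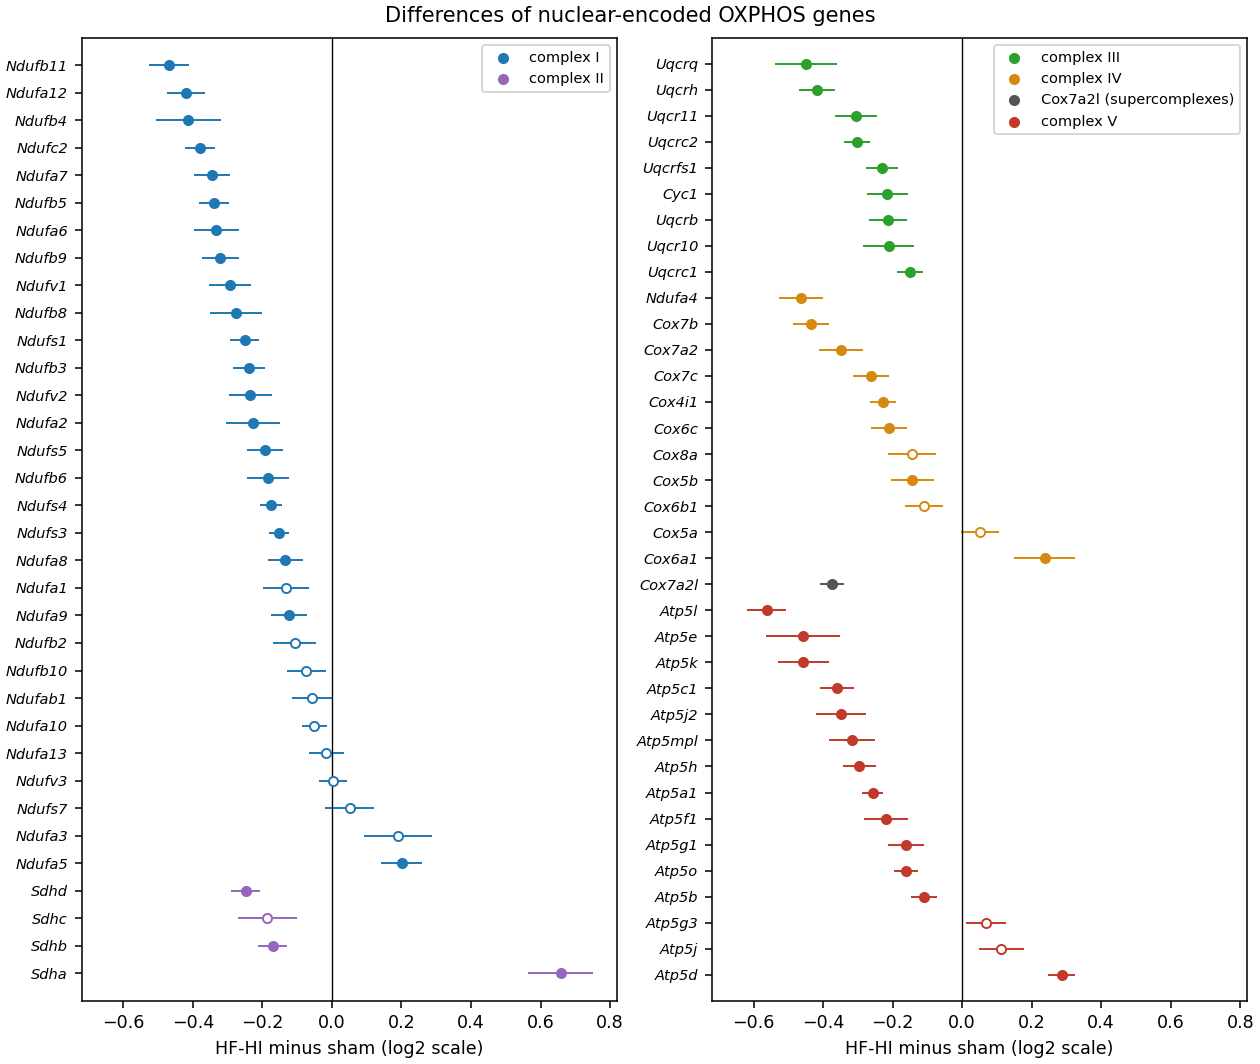
Difference between HF-HI (n = 11) and sham (n = 10) for 70 of the 71 members, on the log2 scale, grouped by complex. Points are differences of group means, bars are standard errors from limma, and open points did not pass an adjusted p of 0.05. All 9 complex III genes lie to the left of 0, and Sdha, at 0.66, lies farthest to the right.

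The shift was also visible library by library. In sham libraries the median level of the 71 members lay between 9.78 and 9.99, with a middle value of 9.88. In HF-HI libraries it lay between 9.62 and 9.90, with a middle value of 9.72. Each HF-HI library had between 55 and 66 of its 71 members below the sham mean of the gene, and each sham library between 10 and 62. By this count the groups overlapped through sham 5 and sham 10, in which 62 and 56 members were below the sham mean. By the median level HF-HI 1 (9.90) and HF-HI 7 (9.87) also lay above sham libraries other than these, such as sham 4 (9.83) and sham 7 (9.84). Within a group, the SD of a member had a median of 0.13, so a difference of about that size is as large as the spread between libraries.

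By complex, the median level of complex I genes ran from 9.20 to 9.61 in sham and from 9.08 to 9.30 in HF-HI. The median of complex V genes ran from 10.47 to 10.79 in sham and from 10.18 to 10.48 in HF-HI, and 1 HF-HI library was above the lowest sham library. Median differences over genes were -0.18 for complex I, -0.18 for complex II, -0.23 for complex III, -0.21 for complex IV and -0.26 for complex V. Among the 19 catalytic and other core subunits 14 were lower and 2 higher, with a median difference of -0.19, and among the other 52 members 38 were lower and 2 higher, with a median of -0.22. Among all 71 members 73.2% were lower, and among all 5544 genes 33.6% were lower and 32.6% higher.

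**Figure D2:**
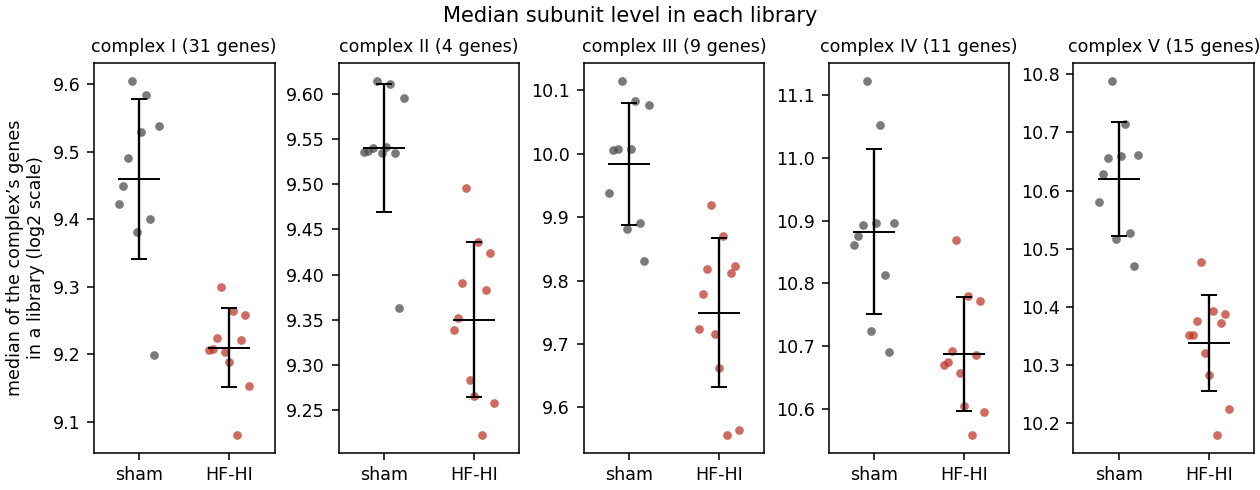
Median level of the genes of each complex in each library, on the log2 scale, for sham (grey, n = 10) and HF-HI (red, n = 11). Black bars are the mean and SD of the libraries. The low sham point of complex I, at 9.20, is sham 10 and that of complex II, at 9.36, is sham 5.

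Complex I, the NADH dehydrogenase, had 21 of 31 genes lower, 1 higher and 9 that did not pass, beside 33.6% lower and 32.6% higher among all genes. The largest decrease was in Ndufb11 (chrX:20615326-20617619 in mm10, minus strand), an accessory subunit of the membrane arm. Its lowest, median and highest values were 9.08, 9.44 and 9.65 in sham and 8.74, 8.93 and 9.07 in HF-HI, so that every HF-HI library was below every sham library. The difference was -0.47 (SE 0.06, adjusted p = 3.42e-07). Such a complete separation toward lower values was found in 10 members (14.1%), where 4.76% of all genes had it. Ndufa12, an accessory subunit of the peripheral arm, differed by -0.42 (SE 0.06) and Ndufb4, of the membrane arm, by -0.41 (SE 0.09), both with overlapping groups. Ndufc2, also of the membrane arm, ran from 9.58 through 9.71 to 9.87 in sham and from 9.15 through 9.34 to 9.48 in HF-HI. Its groups did not overlap, and the difference was -0.38 (SE 0.04, adjusted p = 9.29e-08).

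The core subunits of complex I carry the electron path from NADH to ubiquinone, and 5 of the 6 in the table were lower, beside 33.6% of all genes. Ndufv1, which binds NADH and its flavin, differed by -0.29, Ndufs1, an iron-sulfur subunit, by -0.25, Ndufv2, another iron-sulfur subunit, by -0.23, and Ndufs3 by -0.15. The exception was Ndufs7, which carries the last iron-sulfur cluster before quinone. Its values were 8.81, 9.08 and 9.36 in sham and 8.68, 9.20 and 9.33 in HF-HI, a difference of 0.05 with an adjusted p of 0.538.

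A single complex I gene was higher, Ndufa5, an accessory subunit of the peripheral arm. Its values were 8.33, 8.75 and 8.97 in sham and 8.81, 8.88 and 9.18 in HF-HI, with overlap, and the difference was 0.20 (SE 0.06, adjusted p = 0.00569). Of the genes that did not pass, Ndufa3 was at 0.19 (SE 0.10, adjusted p = 0.091) and Ndufv3 at 0.00. Without sham 9, Ndufa3 passed at 0.24 (adjusted p = 0.0296). Ndufa9 was close to the threshold, at -0.12 with an adjusted p of 0.0393. Leaving out any 1 of 10 libraries (sham 1, 7, 8, 9 or 10, or HF-HI 3, 4, 8, 9 or 11) raised its adjusted p above 0.05, with differences of -0.10 to -0.12. The differences of the 17 complex I genes neither named above nor in the core ranged from -0.35 for Ndufa7 to -0.02 for Ndufa13.

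Complex II, succinate dehydrogenase, is also an enzyme of the tricarboxylic acid cycle, and its 4 genes differed in direction. Sdha (chr13:74322254-74350280, minus strand), the flavoprotein that oxidizes succinate, was the member with the largest increase. Its lowest, median and highest values were 10.95, 11.59 and 11.81 in sham and 12.02, 12.16 and 12.25 in HF-HI. All HF-HI libraries were above all sham libraries, and sham 1, 2 and 3, at 11.11, 10.98 and 10.95, were below the other 7 sham libraries, which began at 11.55. The difference was 0.66 (SE 0.09, adjusted p = 2.62e-06), or 158% of the sham level on the normalized scale. It ran from 0.60 to 0.70 with each library left out in turn. No fit left out sham 1, 2 and 3 together, so this range does not show how far they set its size. Separation toward higher values was found in 2 members (2.82%), Sdha and Atp5d, where 8.71% of all genes had it.

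The other subunits of complex II were at lower values in HF-HI. Sdhb, the iron-sulfur subunit, ran from 9.51 through 9.60 to 9.68 in sham and from 9.26 through 9.44 to 9.58 in HF-HI, and fell by 0.17 (SE 0.04, adjusted p = 0.000857). Sdhd, a membrane anchor, ran from 9.22 through 9.51 to 9.58 in sham and from 9.10 through 9.24 to 9.36 in HF-HI, and fell by 0.25 (SE 0.04, adjusted p = 2.05e-05). Its groups overlapped through sham 5 alone. Sdhc, the second anchor, had values of 8.99, 9.41 and 9.55 in sham and 8.51, 9.24 and 9.41 in HF-HI, with a difference of -0.19 and an adjusted p of 0.058. It passed the threshold when sham 5, HF-HI 1, HF-HI 7 or HF-HI 9 was left out, with differences of -0.20 to -0.23. The lowest value, 8.51, was that of HF-HI 4, and without it the difference was -0.12 (adjusted p = 0.0831).

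**Figure D3:**
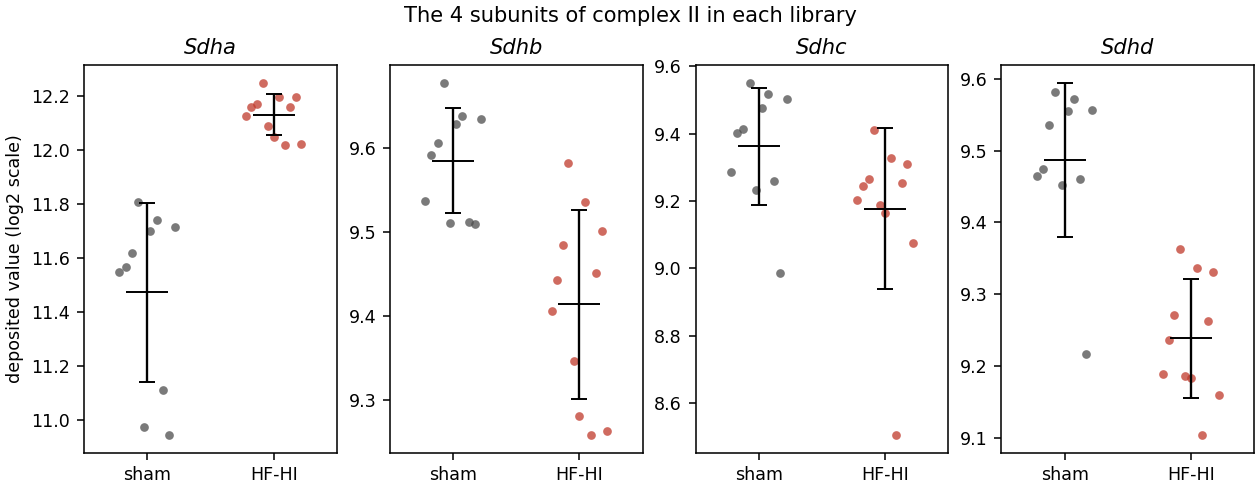
Deposited values of the 4 complex II genes in each library, on the log2 scale, for sham (grey, n = 10) and HF-HI (red, n = 11), with the mean and SD as black bars. Sdha is higher in all HF-HI libraries, between 12.02 and 12.25, whereas the HF-HI points of the other 3 genes lie mostly below the sham points.

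The promoters of Sdha, Sdhb and Sdhd are shown because these genes of 1 enzyme moved in opposite directions. Each is the 250 bases before the RefSeq start site in GRCm38.p6, written 5′ to 3′ on the strand of the gene. Sdha lies at chr13:74350241-74350490 (minus strand), Sdhb at chr4:140961021-140961270 (plus strand) and Sdhd at chr9:50603850-50604099 (minus strand). Capitals mark matches, on either strand, to 4 motifs of factors known to act on OXPHOS genes: GCATGCGC for NRF-1, CCGGAAG for the ETS factor GABP, AAGATGGC for YY1 and AAGGTCA for estrogen-related receptors. These were chosen with counts over the members known. Only these exact letters were searched, so a window without capitals may still hold another form of a factor's site.
Sdha: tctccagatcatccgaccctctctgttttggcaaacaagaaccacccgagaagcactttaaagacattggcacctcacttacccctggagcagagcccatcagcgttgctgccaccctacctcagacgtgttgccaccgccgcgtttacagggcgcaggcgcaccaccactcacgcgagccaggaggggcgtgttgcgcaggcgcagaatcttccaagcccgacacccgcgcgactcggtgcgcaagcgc
Sdhb: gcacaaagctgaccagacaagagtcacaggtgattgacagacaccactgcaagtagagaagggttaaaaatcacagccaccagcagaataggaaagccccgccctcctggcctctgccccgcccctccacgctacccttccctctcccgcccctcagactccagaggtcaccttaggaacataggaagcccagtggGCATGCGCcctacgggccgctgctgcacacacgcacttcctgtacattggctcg
Sdhd: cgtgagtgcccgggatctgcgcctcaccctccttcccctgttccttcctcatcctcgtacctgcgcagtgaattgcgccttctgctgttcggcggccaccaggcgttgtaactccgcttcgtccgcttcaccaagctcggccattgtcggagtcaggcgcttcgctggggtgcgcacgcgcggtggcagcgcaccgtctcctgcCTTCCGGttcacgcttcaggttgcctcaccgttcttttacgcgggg
Sdhb held 1 NRF-1 match, Sdhd held 1 ETS match, and these letters were not in the Sdha window.

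Complex III, the cytochrome bc1 complex, was the one complex in which every member in the table was lower, 9 of 9, beside 33.6% of all genes. The differences ran from -0.45 to -0.15. Uqcrq, a small accessory subunit, had the largest, with values of 8.72, 9.20 and 9.62 in sham and 8.61, 8.78 and 9.33 in HF-HI, and a difference of -0.45 (SE 0.09, adjusted p = 0.00015). Uqcrh, the hinge protein next to cytochrome c1, ran from 10.70 through 10.97 to 11.20 in sham and from 10.42 through 10.54 to 10.62 in HF-HI, without overlap, and differed by -0.42 (SE 0.05, adjusted p = 3.02e-07). Uqcrc2, a core protein, also had groups that did not overlap, with 11.07 to 11.34 in sham, 10.82 to 11.03 in HF-HI and a difference of -0.30 (SE 0.04). Uqcr11, a small subunit, differed by -0.31. The redox subunits encoded in the nucleus were both lower, the Rieske iron-sulfur protein Uqcrfs1 by 0.23 and cytochrome c1 (Cyc1) by 0.22 on the log2 scale. The small subunit genes Uqcrb and Uqcr10 were both at -0.21 and the core protein gene Uqcrc1 at -0.15. With the trends on GC content and exon length removed from each library, 6 of the 9 were lower and Uqcrb turned to 0.15 (adjusted p = 0.003). Over all genes 30.1% were lower in this setting.

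Complex IV, cytochrome c oxidase, had 7 of 11 genes lower, 1 higher and 3 that did not pass, beside 33.6% lower and 32.6% higher among all genes. Its catalytic core is encoded by mitochondrial DNA, and the nuclear members surround it. Ndufa4 was the lowest, with values of 10.95, 11.25 and 11.58 in sham and 10.61, 10.81 and 10.98 in HF-HI, overlapping only at their edges, and a difference of -0.46 (SE 0.06, adjusted p = 1.36e-06). Cox7b ran from 10.69 through 10.91 to 11.14 in sham and from 10.42 through 10.51 to 10.60 in HF-HI, with no overlap, and differed by -0.44 (SE 0.05, adjusted p = 2.29e-07). Cox7a2 (-0.35), Cox7c (-0.26), Cox4i1 (-0.23) and Cox6c (-0.21) were also lower. Cox8a, at -0.14, and Cox6b1, at -0.11, did not pass. Cox8a passed when sham 4, 5 or 6 or HF-HI 9 was left out, with differences of -0.16 to -0.18, and Cox6b1 passed without sham 5, at -0.14. Of these genes, Cox7b, Cox7a2, Cox4i1, Cox8a and Cox6b1, and Cox6a1 described next, are the widely expressed forms of subunits that have isoforms in other tissues, and they did not share 1 call.

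Cox6a1 was the complex IV gene that was higher. Its values were 10.25, 10.54 and 11.07 in sham and 10.55, 10.84 and 11.05 in HF-HI, so the groups overlapped widely, and the difference was 0.24 (SE 0.09, adjusted p = 0.0195). With the trend on GC content removed from each library, the Cox6a1 difference turned to -0.12 (adjusted p = 0.116). Cox5a was at 0.05 (adjusted p = 0.421). Cox5b, lower by limma at -0.14 with an adjusted p of 0.0492, no longer passed when any 1 of 11 libraries (sham 1, 4, 6, 7 or 9, or HF-HI 1, 2, 5, 6, 7 or 10) was left out, with differences of -0.11 to -0.15.

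Cox7a2l, related in sequence to Cox7a and known for joining complexes III and IV in supercomplexes, had the lowest p-value of all members. It ran from 10.50 through 10.57 to 10.67 in sham and from 10.10 through 10.21 to 10.35 in HF-HI, without overlap. The difference was -0.38 (SE 0.03, adjusted p = 5.41e-09).

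Complex V, the ATP synthase, had 12 of 15 genes lower and 1 higher, beside 33.6% lower and 32.6% higher among all genes. The largest decrease of any member was in Atp5l, which encodes the membrane subunit g. Its values were 10.65, 10.96 and 11.13 in sham and 10.17, 10.36 and 10.48 in HF-HI, and every HF-HI library was below every sham library. The difference was -0.56 (SE 0.06, adjusted p = 2.33e-08), or 67.7% of the sham level. Atp5k, which encodes its partner subunit e, ran from 10.53 through 10.72 to 10.96 in sham and from 9.87 through 10.37 to 10.52 in HF-HI, also without overlap, and differed by -0.46 (SE 0.07, adjusted p = 9.8e-06). Both subunits belong to the part of the enzyme where ATP synthase dimers meet. The remaining small membrane subunits, Atp5j2 (subunit f) and Atp5mpl, were lower by 0.35 and 0.32 on the log2 scale.

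Within the catalytic F1 head and its stalk, the genes differed in direction. The alpha subunit gene Atp5a1 ran from 13.64 through 13.78 to 13.83 in sham and from 13.39 through 13.51 to 13.59 in HF-HI, without overlap, and differed by -0.26 (SE 0.03, adjusted p = 1.9e-07). The catalytic beta subunit gene Atp5b differed by -0.11 (SE 0.04, adjusted p = 0.0137). In the central stalk, the gamma subunit gene Atp5c1 was lower by 0.36 and the epsilon subunit gene Atp5e by 0.46, whereas the delta subunit gene Atp5d was higher. The Atp5d values were 9.60, 9.79 and 9.87 in sham and 9.90, 10.07 and 10.20 in HF-HI, without overlap, with a difference of 0.29 (SE 0.04, adjusted p = 1.84e-06). With the GC trend removed the Atp5d difference was 0.04 (adjusted p = 0.35).

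The peripheral stalk holds the head still against the turning rotor. Its genes Atp5h (-0.30), Atp5f1 (-0.22) and Atp5o (-0.16) were lower, and Atp5j was at 0.11 with an adjusted p of 0.131. The proton-carrying c ring is made of identical proteins from separate genes. Atp5g1 ran from 10.20 through 10.46 to 10.61 in sham and from 10.03 through 10.29 to 10.45 in HF-HI and differed by -0.16 (SE 0.05, adjusted p = 0.00756), and Atp5g3 had values of 10.23, 10.53 and 10.67 in sham and 10.32, 10.64 and 10.77 in HF-HI, with a difference of 0.07 (adjusted p = 0.295). Whether these c-ring genes differ from each other in their response was not tested. Outside the naming rule, the ATP synthase inhibitor Atpif1 was at -0.21 (adjusted p = 0.0154) and Usmg5, a small ATP synthase subunit, at -0.25 (adjusted p = 0.00772).

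The promoters of Atp5d, Atp5l and Atp5k are shown as those of the rise and of the largest falls without overlap in complex V. Atp5d lies at chr10:80142025-80142274 (plus strand), Atp5l at chr9:44920743-44920992 (minus strand) and Atp5k at chr5:108434400-108434649 (minus strand), each again 250 bases from RefSeq in GRCm38.p6, with the same motifs in capitals. Of the 2 RefSeq start sites of Atp5d, the one nearer the GENCODE start of the gene was used.
Atp5d: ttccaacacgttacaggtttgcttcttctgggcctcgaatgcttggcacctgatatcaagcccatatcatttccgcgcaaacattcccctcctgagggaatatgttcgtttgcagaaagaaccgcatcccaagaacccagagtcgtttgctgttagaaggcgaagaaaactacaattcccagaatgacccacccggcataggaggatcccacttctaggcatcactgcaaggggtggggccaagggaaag
Atp5l: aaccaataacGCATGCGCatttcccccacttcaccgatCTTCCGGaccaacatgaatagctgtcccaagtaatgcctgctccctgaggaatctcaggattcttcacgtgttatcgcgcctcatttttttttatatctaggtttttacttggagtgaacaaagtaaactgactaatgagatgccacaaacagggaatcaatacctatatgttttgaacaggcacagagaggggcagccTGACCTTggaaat
Atp5k: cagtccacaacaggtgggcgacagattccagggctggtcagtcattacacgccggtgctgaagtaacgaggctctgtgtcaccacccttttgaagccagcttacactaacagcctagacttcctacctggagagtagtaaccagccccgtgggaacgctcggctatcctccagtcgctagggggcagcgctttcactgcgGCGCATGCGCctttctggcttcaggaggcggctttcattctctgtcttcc
Atp5l held 3 matches, to the NRF-1, ETS and receptor motifs. Atp5k held 2 overlapping NRF-1 matches, one on each strand, and these letters were not in the Atp5d window.

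Over all members, a RefSeq window was found by symbol for 57 of 71. These were 39 of the 52 lower members, all 4 higher ones and 14 that did not pass, so most members without a window were lower. The NRF-1 motif was in 6 of these (10.5%), among 5.38% of the genes in the table and 2.56% of all genes with a window. The ETS motif was in 11 (19.3%), beside 15.1% and 7.83%, the receptor motif in 5 (8.77%), beside 3.44% and 4.7%, and the YY1 motif in 1 (1.75%), beside 2.19% and 1.83%. By call, the NRF-1 motif was in 5 of 39 lower members (12.8%), 1 of 4 higher (25%) and 0 of 14 not past. The ETS motif was in 8 of 39 lower (20.5%), 1 of 4 higher (25%) and 2 of 14 not past (14.3%). The receptor motif was in 3 of 39 lower (7.69%), 0 of 4 higher and 2 of 14 not past (14.3%). Cox6a1, which was higher, held the NRF-1 and ETS motifs. Whether a motif goes with a direction was not tested. A match is a run of letters and was not taken as a bound site.

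The 13 subunits encoded by mitochondrial DNA were measured in the same libraries, and 9 of them were higher, 2 lower and 2 did not pass, beside 32.6% higher and 33.6% lower among all genes. Their median difference was 0.59. For mt-Nd2, a membrane subunit of complex I, values were 11.75, 12.35 and 12.81 in sham and 13.10, 13.40 and 14.11 in HF-HI, with a difference of 1.17 (SE 0.14, adjusted p = 1.86e-07) and no overlap. mt-Atp8 of complex V was higher by 1.04 and mt-Nd1 of complex I by 1.03. mt-Cytb, the cytochrome b of complex III, was higher by 0.92 while all nuclear genes of that complex were lower. The lower mitochondrial genes were mt-Nd3, at -0.18, and mt-Co3, at -0.10, and both turned positive when the GC trend was removed (0.03 and 0.04, neither past 0.05). mt-Co1 was at 0.03 and mt-Nd6 at 0.32, and neither passed. The mt-Nd6 difference was 0.11 without HF-HI 9 and 0.21 without sham 8. With both trends removed all 13 were higher, with a median of 1.02. The median level of the mitochondrial genes ran from 13.48 to 14.28 in sham and from 14.19 to 14.83 in HF-HI libraries. The difference between the nuclear and mitochondrial groups was not tested as such.

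**Figure D4:**
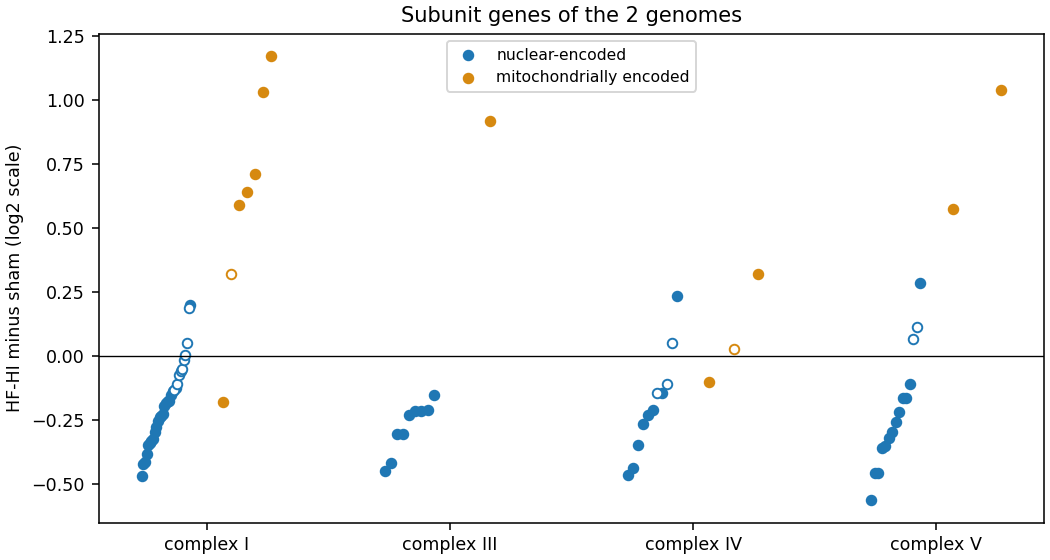
Difference between HF-HI (n = 11) and sham (n = 10), on the log2 scale, of each nuclear (blue) and mitochondrial (orange) subunit gene of complexes I, III, IV and V. Open points did not pass an adjusted p of 0.05. Mitochondrial genes lie higher than the nuclear genes of the same complex for most points, up to 1.17 for mt-Nd2, and mt-Nd3 and mt-Co3 lie below 0.

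Genes that work with the complexes were examined as lists, in which a gene is called lower or higher by the same adjusted p. Over all genes 33.6% were lower and 32.6% higher. Of 42 other assembly factors, 6 were in the table and 4 of them were lower, led by Uqcc2 (-0.44) and Uqcc1 (-0.23), which assist complex III, and Lrpprc (-0.18), which stabilizes mitochondrial mRNA. Of 20 electron carriers and quinone-linked enzymes, 4 were in the table and 2 were lower, the ubiquinone synthesis genes Coq2 (-0.31) and Coq9 (-0.23). Cytochrome c (Cycs) was at -0.14 with an adjusted p of 0.174, and passed without HF-HI 9, at -0.19 (adjusted p = 0.0261). Among genes that move or buffer ATP, 10 of 14 were in the table. The outer membrane channels Vdac3 (-0.33), Vdac2 (-0.20) and Vdac1 (-0.18) and the ADP/ATP carrier Slc25a4 (-0.14) were lower. The creatine kinase gene Ckb (0.20) and the phosphate carrier Slc25a3 (0.13) were higher, and Ckb turned to -0.13 (adjusted p = 0.0127) with the GC trend removed.

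The tricarboxylic acid cycle supplies NADH and succinate. Of its 21 genes in the table, pyruvate dehydrogenase included, 11 were lower (52.4%, beside 33.6% of all genes) and 5 higher (23.8%, beside 32.6%), with a median difference of -0.09. Ogdh, a subunit of the 2-oxoglutarate dehydrogenase complex, was higher by 0.60, Mdh2, the malate dehydrogenase, by 0.51 and Cs, the citrate synthase, by 0.50. Pdha1, of pyruvate dehydrogenase, was lower (-0.34), as were its phosphatase Pdp1 (-0.29) and the succinyl-CoA ligase subunit Sucla2 (-0.32). Of 19 regulators of OXPHOS genes, 8 were in the table. Thra, a thyroid hormone receptor, was higher (0.37), Creb1 was lower (-0.17), and the coactivator Ppargc1a, at 0.10 (adjusted p = 0.0708), and the ETS subunit Gabpa, at 0.08 (adjusted p = 0.139), did not pass.

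Cell type markers were counted beside the same shares of all genes, 33.6% lower and 32.6% higher. Of 12 neuronal markers 9 were higher and 1 lower, and the mean level of the list ran from 11.73 to 11.97 in sham and from 12.24 to 12.35 in HF-HI libraries. Nrgn, at 1.32, Slc17a7, at 0.89, and Rbfox3, at 0.83, led, and Map2 was lower (-0.10). The astrocyte list (9 of 10 genes in the table) had 4 higher, led by Gja1 (0.39), Gfap (0.29) and Glul (0.17), and 2 lower, S100b (-0.20) and Slc1a3 (-0.17), with mean levels of 11.31 to 11.55 in sham and 11.36 to 11.52 in HF-HI. Gfap no longer passed without sham 10, at 0.26 (adjusted p = 0.0503), or without HF-HI 8, at 0.25 (adjusted p = 0.0508). Of 9 oligodendrocyte markers (10 listed) 2 were higher, Mbp (0.39) and Cldn11 (0.33), with levels of 11.07 to 11.82 and 11.06 to 11.71. Of 2 microglial markers (10 listed) 1 was lower and 1, Csf1r, was higher (0.13), with levels of 9.49 to 9.69 and 9.42 to 9.63. Of 3 endothelial markers (8 listed) Flt1 was higher (0.28) and Slco1a4 lower (-0.24), with levels of 9.72 to 9.92 and 9.79 to 9.89. The deposited scale has no value of 0, so it does not show which markers were undetected. Their part in the OXPHOS result was not tested.

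Tissue outside the cortex was checked with 2 further lists. Of 6 striatal markers (8 listed) 1 was lower, Drd1 (-0.36), and the mean level ran from 9.96 to 10.34 in sham and from 9.30 to 10.61 in HF-HI. Of the choroid plexus markers Ttr and Enpp2 (6 listed) neither passed, and their mean level ran from 8.97 to 11.83 in sham and from 9.27 to 13.12 in HF-HI, so libraries of both groups varied in it.

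The trends of a library's values on GC content and exon length differed between the groups, with overlap in both. Members were short, with a median of 1801 exonic bases beside 5979 for all genes, and 60 of the 71 were among the shortest 20% of genes in the table. Their exonic GC content, 49.9% in the median, was close to the 47.6% of all genes. The slope of a library's values on GC content, per 10 percentage points, ran from -0.23 to 0.01 in sham and from -0.04 to 0.16 in HF-HI. The slope per 10-fold longer exons ran from -0.11 to 0.04 in sham and from -0.04 to 0.09 in HF-HI. Relative depth, estimated from the spacing of the values, had a median of 0.864 in sham and 1.17 in HF-HI, and with it as a covariate 53 members were lower (beside 33.4% of all genes) and 4 higher (beside 32.2%). Across the 71 members, which are not independent replicates, the difference had a Pearson r of 0.17 with GC content and 0.09 with log10 exon length.

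With both trends removed from each library, the setting with 34 members lower and 10 higher, complex I changed most, to 12 of 31 lower with a median of -0.04, and complex V kept 10 of 15 lower with a median of -0.15. Over all genes 30.1% were lower in this setting. With the GC trend alone removed, 54 were lower (beside 31.0%) and 3 higher (beside 29.2%), and the median was -0.28. With trends estimated on genes outside the members and the ribosomal proteins, 40 were lower (beside 31.1%) and 7 higher (beside 28.0%), and the median was -0.15. Removing the length trend would also remove a biological difference that follows length, and the part of length in the result was not tested further. Of 980 genes among the shortest 20% that were neither members nor ribosomal proteins, and that were not matched to the members in length, 36.8% were lower and 30% higher, with a median of -0.04. Of 77 cytosolic ribosomal protein genes, also short, 57 were lower and 6 higher, with a median of -0.30.

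**Figure D5:**
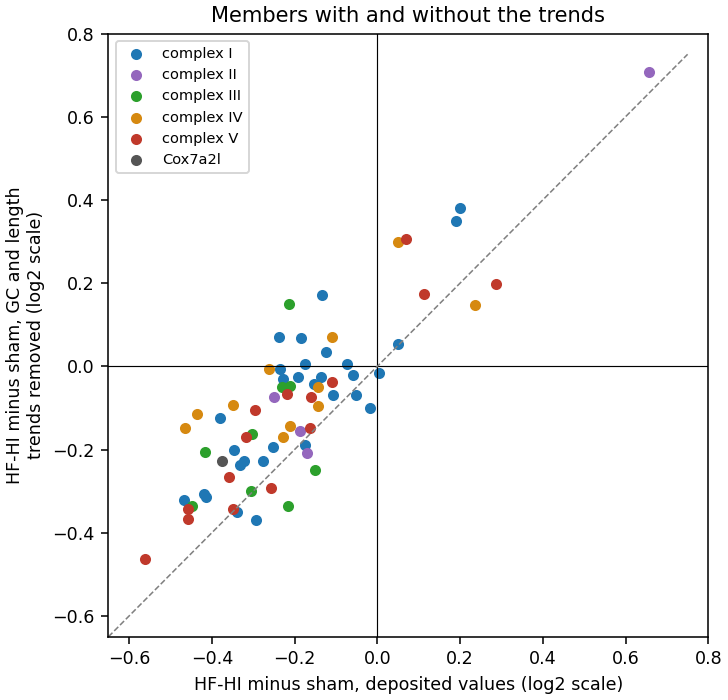
Difference between HF-HI (n = 11) and sham (n = 10) of the 71 members on the log2 scale, from the deposited values (horizontal) and after each library's trends on GC content and exon length were removed (vertical), coloured by complex. The dashed line marks equal values. Most points lie above it, and Sdha, at 0.66 and 0.71, stays at the top right.

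Across the settings, 34 members were lower and 1, Sdha, was higher in the reported fit, in all 12 alternatives that kept the size of the difference free, where they were tested, and whenever any single library was left out. This was 47.9% of the members lower and 1.41% higher, where 18.2% and 19.2% of all genes met the same conditions. The 34 comprised 12 complex I genes, Sdhb, 6 of complex III, 4 of complex IV, Cox7a2l and 10 of complex V. The core subunits among them included Ndufv1, Ndufs1, Sdhb, Cyc1, Atp5a1, Atp5c1, Atp5e and Atp5g1. Atp5d, Cox6a1 and Ndufa5 were each lost in at least 1 alternative.

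The members whose level followed the median of the other members most closely over the 21 libraries were Atp5mpl, Cox7a2 and Ndufv1, with Pearson r of 0.91, 0.86 and 0.85. After the group means were subtracted the values were 0.81, 0.70 and 0.60. These libraries share their normalization, and the values are given as a description.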

How the data were processed

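Total RNA of mouse cortex was sequenced by the authors as ribosome-depleted, stranded TruSeq libraries, 1 per mouse. Per their methods and the labels, the authors aligned reads to mm10 with STAR, counted them per transcript with eXpress and normalized them with DESeq2, and removed outlying genes by Cook's distance. The versions of STAR and eXpress, the annotation and the pool of each library are not given in the sources used here. The authors deposited variance-stabilized log2 values for 5544 genes and 21 libraries. Read totals were not analysed here, so the absolute depth is unknown. The variation between libraries of a group limits the precision. With 1 library per mouse, variation between mice and technical variation cannot be told apart in it.

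Groups and replicate numbers were taken from the labels. Symbols, exon lengths and GC content came from GENCODE M21 (GRCm38, the assembly of mm10), with a GC content for 5539 genes. HF-HI was compared with sham by limma 3.58.1 in R 4.3.3 (lmFit, eBayes with a trend, two-sided), with Benjamini-Hochberg adjustment over all genes and a threshold of 0.05. The study's methods give 0.1, which was tried as an alternative. Per-library trends on GC content and exon length were removed by lowess (span 0.3). The fit and the removal of trends were tested on simulated data. Relative depth was estimated from the step between neighbouring back-transformed values (500 to 600).

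The members, the gene lists and the motifs were chosen with earlier results of these data known. Genes named were, per complex, the 3 with the largest differences in each direction, core subunits, isoforms, members whose groups do not overlap, Cox7a2l and the 3 closest to the member median, and in each list up to 3 genes per direction. Further genes (Ndufa3, Ndufa9, Ndufa13, Ndufv3, Ndufa7, Uqcrc2, Cox5a, Cox5b, the peripheral stalk and membrane subunits of ATP synthase, Atpif1, Usmg5, mt-Cytb, mt-Co1, mt-Nd6, Cycs, Slc25a4, Ppargc1a and Gabpa) were named after their values were seen. The values of 2 genes that this rule would name are not reported here. Many members have processed pseudogenes with which reads could be shared. Its effect on single genes and on their groups was not tested. Figures were drawn with matplotlib 3.10.9 in Python 3.11.15.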

Additional observations from a re-analysis of the deposited data

Results flagged for a closer look

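In 77 groups of 10 sham values (the 71 members and 6 medians over members or complexes), the lowest or highest library was set against Dixon's 95% critical value, and 2 passed. Chance alone passes about 1 group in 20, and HF-HI groups of 11 were not examined in this way. Both were low values of sham 5. For Sdhd, the value of sham 5 was 9.22, its nearest neighbour was at 9.45 and the ratio of that gap to the range was 0.644. Without sham 5 the Sdhd difference was -0.28 with an adjusted p of 4.98e-07 by limma. For the median of the complex II genes, sham 5 was at 9.36, its nearest neighbour was at 9.53 and the ratio was 0.682.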

How the results depend on the processing

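Of the counts and medians over members, those not given here kept their direction and stayed within 1.5 times or 1 SD under each alternative. The number of members lower ran from 50 to 55 and higher from 4 to 5 with each library left out, and the median difference from -0.23 to -0.20. The fit with the replicate number as a block gave 49 lower and 5 higher (beside 31.7% and 31.4% of all genes) and a median of -0.21. Deviations of same-numbered libraries correlated from -0.31 to 0.364, with 4 of 10 pairs over 0.1, and 0 of 10 pairs matched best with their own number. The check looked only for such best matches, and a weaker link by number was not tested.

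With a minimum absolute difference of 0.25, 28 members were lower and 2 higher, and 446 and 987 of all genes. With GC and length trends removed, 34 were lower and 10 higher, and medians were -0.095 for members, -0.043 for complex I, -0.093 for complex IV and -0.15 for complex V. With trends set by other genes, an alternative chosen after seeing the data like the depth covariate, 7 were higher and complex V was at -0.16. With the GC trend removed and the block, 2 were higher and complex II was at -0.26. Fewer genes are called by construction in the first setting, and for the other settings the cause was not tested.

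Signs turned as follows. With both trends removed, Ndufa9 was at 0.034, Ndufa1 at 0.17, Uqcrb at 0.15, Ndufs4 at 0.0060, Ndufb3 at 0.071, Cox6b1 at 0.071, Ndufb10 at 0.0056, Ndufb6 at 0.069, Cycs at 0.035, mt-Co3 at 0.30, mt-Nd3 at 0.35, Ckb at -0.053, Csf1r at -0.017 and Ndufv3 at -0.017. With trends set by other genes, Ndufa9 was at 0.0085, Ndufa1 at 0.10, Uqcrb at 0.082, Ndufs4 at 0.0014, Ndufb3 at 0.0029, Cycs at 0.037, mt-Co3 at 0.23, mt-Nd3 at 0.29, Ckb at -0.063, Csf1r at -0.024 and Ndufv3 at -0.029. With the GC trend removed, and with the block added, Ndufs7 was at -0.12 and -0.14, Ndufv3 at -0.085 and -0.072, Cox6a1 at -0.12 and -0.12, mt-Co3 at 0.037 and 0.042, mt-Nd3 at 0.032 and 0.034, Ckb at -0.13 and -0.12 and Csf1r at -0.0038 and -0.0088, and Ndufab1 at 0.0041 without the block. With medians centred, Cox5a was at -0.00082, Ndufs7 at -0.00081, Ndufv3 at -0.048 and mt-Co1 at -0.024. With quantile normalization Ndufv3 was at -0.073 and mt-Co1, near the top of the range of values, at -0.42. With depth as a covariate Ndufs7 was at -0.0016 and Ndufv3 at -0.035. With single libraries left out, Ndufv3 ran from -0.015 to 0.021 and Ndufa13 from -0.038 to 0.0081. The cause was not tested.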
